A study of Mus musculus with 19 samples.

Results

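The zinc finger genes described here are 235 protein-coding mouse genes whose symbol is Zfp or Zkscan followed by a number. They were chosen by name and by mean TPM, as those with a mean of at least 2 TPM (a transcript level scaled for gene length and for the library's sum) over 19 libraries, with Zfp36 left out. They were 235 of 381 protein-coding genes of these names and of 56941 genes in the deposited tables. Of the rest, 145 lay below the level, and 110 of those still passed the filter for testing. All 235 passed that filter, so no member was lost to low counts. Among them 228 carried a Zfp and 7 a Zkscan symbol, and their mean TPM ran from 2.01 to 108 with a median of 7.04. The level used exposed and naive libraries alike. The group itself was proposed with earlier results of these data in view, so its overall fall on exposure is a description.

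RNA was sequenced in bulk, after poly(A) selection, from cells lavaged from the airspaces of female mice aged 7 to 8 weeks. The 4 groups were naive wild type C57Bl/6J mice (n = 4), naive ICAM-1 null mice (n = 5), exposed wild type mice (n = 5) and exposed ICAM-1 null mice (n = 5). ICAM-1 is an adhesion molecule bound by leukocyte integrins. Exposed mice were lavaged, with 2 mM EDTA, 1 h after they had aspirated through the oropharynx, under isoflurane, a volume of 100 µL that held 2.27 mg/mL of bioparticles from Staphylococcus aureus. The particles are killed bacteria that carry pHrodo, a dye that brightens in acid. No vehicle for naive mice and no background strain of the null line is stated in the labels. No sort of the lavaged cells is described, and nothing states how replicates were housed or handled. Each p-value therefore measures the spread between these libraries.

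Most proteins with these names carry repeated C2H2 zinc fingers, small folds held by a zinc ion that read DNA bases and in some members bind RNA. Many also carry a KRAB domain, which recruits Trim28 (KAP1) and with it Setdb1, a histone H3 lysine 9 methyltransferase, to silence retroelements and imprinted regions. Genes of this kind sit in tandem clusters that grew by duplication, so neighbours can be close in sequence. The sources used here do not give the counting options for strand or multiply mapped reads, so neighbouring paralogs may share reads.

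Library totals ran from 32.8 to 80.3 M estimated counts (M for mega), with wild type naive libraries 1 to 3 lowest at 32.8, 36.96 and 41.02 M. Icam1 stood at 63.8 to 85.9 TPM in naive and 722 to 1079 TPM in exposed wild type libraries, against 4.88 to 13.2 TPM in the 10 null libraries. The 12 alveolar macrophage markers summed to between 22562 and 30254 TPM in all libraries, and none was at 0 in any whole group. Chil3 was the largest part, at 12049 to 18660 TPM. Of the 12, edgeR called 7 higher and 3 lower on exposure in wild type, and 4 higher and 2 lower in null mice. Between genotypes 3 were higher and 1 lower in naive null mice, and 2 higher and 2 lower in exposed null mice. Marco was at 417 to 545 TPM in naive wild type and 1511 to 2071 TPM in naive null libraries. The 15 epithelial markers summed to 677 to 875 TPM in naive and 1356 to 3691 TPM in exposed wild type, and to 565 to 800 and 836 to 1452 TPM in null libraries. Scgb1a1 was the largest part of the exposed wild type sum, at 707 to 2525 TPM, against 197 to 284 TPM in naive wild type libraries. Of these 15, edgeR called 11 higher on exposure in wild type, and 10 higher and 1 lower in null mice. Red cell markers summed to 134 to 410 TPM in naive and 370 to 2399 TPM in exposed wild type, where all 5 tested of 7 rose, and to 97.7 to 352 and 129 to 351 TPM in null libraries, where none was called. Neutrophil markers summed to 66.9 to 94.1 (naive) and 86.0 to 117 TPM (exposed) in wild type and to 170.1 to 185 and 125 to 188 TPM in null libraries. Among their granule genes, Ngp and Camp were at or near 0, whereas Ltf and Mmp8 were present. Ltf was at 6.08 to 15.1 TPM in naive and 27.98 to 43.7 TPM in exposed wild type libraries. In null libraries it was at 3.86 to 18.7 and 16.9 to 72.5 TPM. Mmp8 was at 15.6 to 25.05 TPM in naive and 9.45 to 20.3 TPM in exposed wild type libraries. Csf3r alone was at 27.8 to 34.6 TPM in naive wild type and 95.8 to 105 TPM in naive null libraries, and at 14.4 to 18.02 and 47.4 to 63.9 TPM in exposed ones. Of the 7 neutrophil markers tested, 4 rose and 1 fell on exposure in wild type and 2 rose and 1 fell in null mice, and 3 were higher in naive null mice and 3 higher and 2 lower in exposed null mice. T, NK and B cell markers summed to 631 to 728 and 503 to 593 TPM in wild type and to 362 to 440 and 302 to 357 TPM in null libraries. Cd2 made up most of the wild type sum, at 460 to 520 TPM in naive and 297 to 339 TPM in exposed libraries, and of the 10 markers tested 6 rose and 1 fell in wild type, and 3 rose and none fell in null mice. The part of these other cells in the zinc finger results was not tested, and in bulk RNA fewer cells of a type and less RNA per cell cannot be told apart. Exposed wild type library 2 stood apart from its group in many members, and results that turn on it are given without it too.

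RefSeq start windows, on build GRCm38.p6, were matched for 192 of the 235 genes, as 235 windows because some genes have several. Each spans 300 bases, 250 before and 50 after a start. The median number of CG dinucleotides was 7 over all 32851 windows, 15 over the members' windows, 13 over the 133 windows of genes that fell on exposure in both genotypes and 24.5 over the 22 windows of genes that rose in both. The 250 bases before the start are shown for 2 genes that rose (Zfp422 and Zfp655), 2 genes that fell in every exposed library (Zfp810 and Zfp961), and Zfp968, a gene of the chromosome 2 cluster that was lower in null mice. They were chosen after their values were seen. Capitals mark each CG.
Zfp422: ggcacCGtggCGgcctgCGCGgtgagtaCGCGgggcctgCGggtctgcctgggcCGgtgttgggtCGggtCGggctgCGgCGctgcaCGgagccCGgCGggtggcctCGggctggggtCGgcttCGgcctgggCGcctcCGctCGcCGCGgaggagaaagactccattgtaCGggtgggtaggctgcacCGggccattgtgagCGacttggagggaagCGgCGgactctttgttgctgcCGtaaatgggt
Zfp655: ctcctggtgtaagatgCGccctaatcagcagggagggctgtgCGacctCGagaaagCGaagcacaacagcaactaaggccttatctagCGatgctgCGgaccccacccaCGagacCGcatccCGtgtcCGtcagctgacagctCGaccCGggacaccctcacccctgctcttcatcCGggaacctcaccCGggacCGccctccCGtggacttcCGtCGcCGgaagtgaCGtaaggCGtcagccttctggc
Zfp810: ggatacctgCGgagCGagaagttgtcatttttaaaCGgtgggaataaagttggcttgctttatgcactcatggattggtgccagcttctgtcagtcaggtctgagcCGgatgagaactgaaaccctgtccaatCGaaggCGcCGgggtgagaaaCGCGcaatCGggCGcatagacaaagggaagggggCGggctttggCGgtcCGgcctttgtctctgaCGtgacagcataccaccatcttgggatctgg
Zfp961: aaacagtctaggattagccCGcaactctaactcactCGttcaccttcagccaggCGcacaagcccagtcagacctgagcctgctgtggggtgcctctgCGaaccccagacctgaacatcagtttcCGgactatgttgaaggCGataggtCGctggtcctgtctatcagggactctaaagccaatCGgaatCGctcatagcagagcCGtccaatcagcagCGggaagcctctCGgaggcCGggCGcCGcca
Zfp968: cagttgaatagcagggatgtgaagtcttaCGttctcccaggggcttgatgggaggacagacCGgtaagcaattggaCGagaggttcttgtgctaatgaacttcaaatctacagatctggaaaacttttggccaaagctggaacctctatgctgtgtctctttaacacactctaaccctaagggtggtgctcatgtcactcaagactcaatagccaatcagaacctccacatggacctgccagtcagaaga
These lie at chr6:116628702-116628951 (minus strand), chr5:145231492-145231741 (plus), chr9:22307639-22307888 (minus), chr8:71950816-71951065 (plus) and chr2:175372186-175372435 (plus). They hold 29, 21, 15, 15 and 3 CG dinucleotides in that order. The windows of the genes that rose had a higher median CG count than those of the genes that fell. The examples were chosen with their values known and span 250 bases, so they add no weight to this.

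Short motifs were searched on both strands of the 300-base windows, and a match is a description of letters only. The ETS motif CCGGAAGT was in 3.89% of all windows, 11.5% of the members' windows, 8.27% of the windows of genes that fell in both genotypes and 31.8% (7 of 22) of those that rose. The GC box GGGCGG was in 35.7%, 48.5%, 40.6% and 77.3% of the same sets. Motifs named for factors of the early inflammatory response were in few windows. The AP-1 motif TGAGTCA was in 5.202% of all and 3.83% of the members' windows, and the CRE motif TGACGTCA in 1.79% and 3.404%. Neither was in any of the 22 windows of genes that rose in both genotypes. The ETS and GC box motifs hold CG, so their shares move with the CG count of a window.

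The zinc finger genes fell on exposure far more often than they rose, in both genotypes. Changes are log2 fold changes of exposed over naive from edgeR's quasi-likelihood test on TMM-scaled estimated counts, and a gene is called at a Benjamini-Hochberg adjusted p under 0.05 over 20501 genes. In wild type mice 142 members fell (60.4%) and 22 rose (9.36%), with a median change of −0.59. Over all genes tested 20.2% fell and 20.1% rose with a median of 0.02, and over the 10310 protein-coding genes at the members' level 30.5% fell and 26.7% rose with a median of −0.04. In ICAM-1 null mice 161 members fell (68.5%) and 24 rose (10.2%), with a median of −0.76. There 23.4% of all genes and 35% of the protein-coding genes fell, and 21.4% and 26.8% rose, with medians of 0.02 and −0.07. Falls of at least 1 on the log2 scale were called for 65 members (27.7%) in wild type and 90 (38.3%) in null mice, against 6.73% and 8.58% of all genes and 5.91% and 7.82% of the protein-coding genes. The 53 zinc finger genes of other names at this level (Zbtb, Zscan, Zfhx and Klf) also fell more often than they rose. In wild type 24 were lower (45.3%) and 13 higher (24.5%), and in null mice 28 (52.8%) and 11 (20.8%). Their medians were −0.30 and −0.39. Falls of at least 1 on the log2 scale were called for 12 of them (22.6%) in wild type and 14 (26.4%) in null mice. Large falls were thus common in both sets, and the shift to 1 side was larger in the members.

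**Figure D1:**
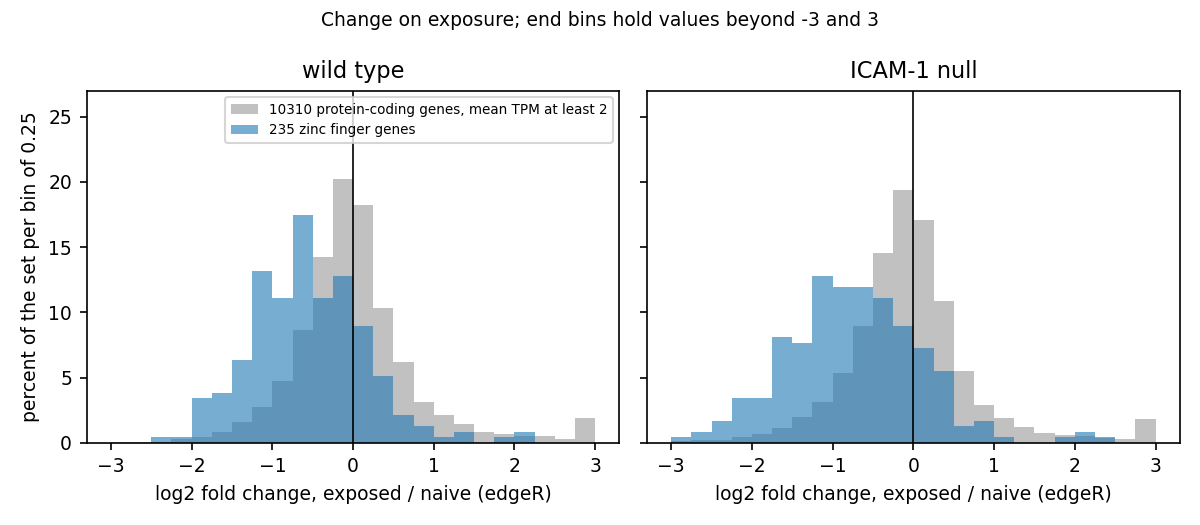
Percent of genes (vertical) per bin of 0.25 in log2 fold change on exposure (horizontal), for the 235 zinc finger genes and the 10310 protein-coding genes of like level, in wild type and ICAM-1 null mice. The zinc finger genes are shifted to the left, with medians of −0.59 and −0.76 against −0.04 and −0.07.

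Their summed level showed the same fall. The members summed to 3408 ± 218 TPM (SD, n = 4) in naive and 2126 ± 170 TPM (SD, n = 5) in exposed wild type mice, and to 3378 ± 109 and 2069 ± 75.7 TPM (SD, n = 5 each) in null mice. In the TPM values 163 members in wild type (69.4%) and 181 in null mice (77%) had every exposed library below every naive one, against 32% and 32.7% of all genes tested and 51.1% and 51.6% of the protein-coding genes of like level. TPM, like plain library totals, placed most genes lower after exposure. Relative to the TMM scale, the median of all genes moved from 0.02 to −0.34 in wild type and from 0.02 to −0.32 in null mice with library totals, and to −0.22 and −0.19 on log2(TPM + 1). On log2(TPM + 1) with limma 183 members fell and 9 rose in wild type, and 188 fell and 7 rose in null mice, where 60.6% and 61% of the protein-coding genes fell and 12.2% and 12.3% rose. The 142 and 161 falls on the TMM scale were all called in the same direction with library totals and with TPM, whereas 5 of the 22 and 6 of the 24 rises had the opposite sign there. Those scales lower most genes, so they favour falls and cannot test them. DESeq2-style size factors gave all-gene medians of 0.03 and 0.04. With them 139 and 158 of the falls, and all 22 and 24 rises, kept their calls.

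The largest falls were several-fold and were seen in every exposed library. Zfp810 (ENSMUSG00000066829.8, chr9:22188044-22218944 on GRCm39) was at 25.99, 29.8, 33.2 and 41.2 TPM in naive and 3.37, 6.802, 4.37, 3.07 and 5.22 TPM in exposed wild type libraries. In null mice it was at 37.8, 30.6, 37.9, 38.6 and 32.8 TPM in naive and 2.64, 3.84, 3.89, 4.25 and 2.51 TPM in exposed libraries. The highest exposed library lay below the lowest naive one in both genotypes. Its change was -2.38 (SE 0.22) in wild type and -2.95 (SE 0.22) in null mice (edgeR adjusted p 1.89e-08 and 4.06e-10), the largest fall among the members in both. Zfp961 (chr8:72704882-72747636) went from 19.8, 16.4, 17.4 and 16.98 TPM to 3.52, 6.29, 4.03, 3.47 and 3.12 TPM in wild type libraries. In null libraries it went from 19.9, 15.9, 15.7, 18.7 and 17.6 TPM to 4.16, 2.86, 2.92, 3.88 and 2.23 TPM. Exposed wild type library 2 was the highest of its group for both genes, and still lay far below the naive libraries. The change of Zfp961 was -1.88 (SE 0.15) and -2.25 (SE 0.15).

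Zfp316 and Zfp251 show the same fall at lower levels. Zfp316 (chr5:143235452-143255777) was at 4.37, 5.07, 3.84 and 3.67 TPM in naive and 0.702, 1.26, 1.14, 1.03 and 0.802 TPM in exposed wild type libraries, and at 3.95, 3.801, 4.46, 3.87 and 4.54 and 0.838, 0.521, 0.932, 0.869 and 0.822 TPM in null libraries. Its changes of -1.96 (SE 0.16) and -2.002 (SE 0.16) were alike in both genotypes. Zfp251 (chr15:76735809-76755635) was at 8.07, 7.36, 8.505 and 8.86 TPM in naive and 1.300, 2.397, 3.01, 1.69 and 2.204 TPM in exposed wild type libraries, and at 8.36, 8.23, 7.44, 8.76 and 11.8 and 1.42, 1.45, 1.43, 1.37 and 0.987 TPM in null libraries. The exposed null libraries lay at 1.45 TPM or below and, apart from the lowest wild type value, under the exposed wild type ones. Its changes were -1.65 (SE 0.17) and -2.36 (SE 0.17).

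**Figure D2:**
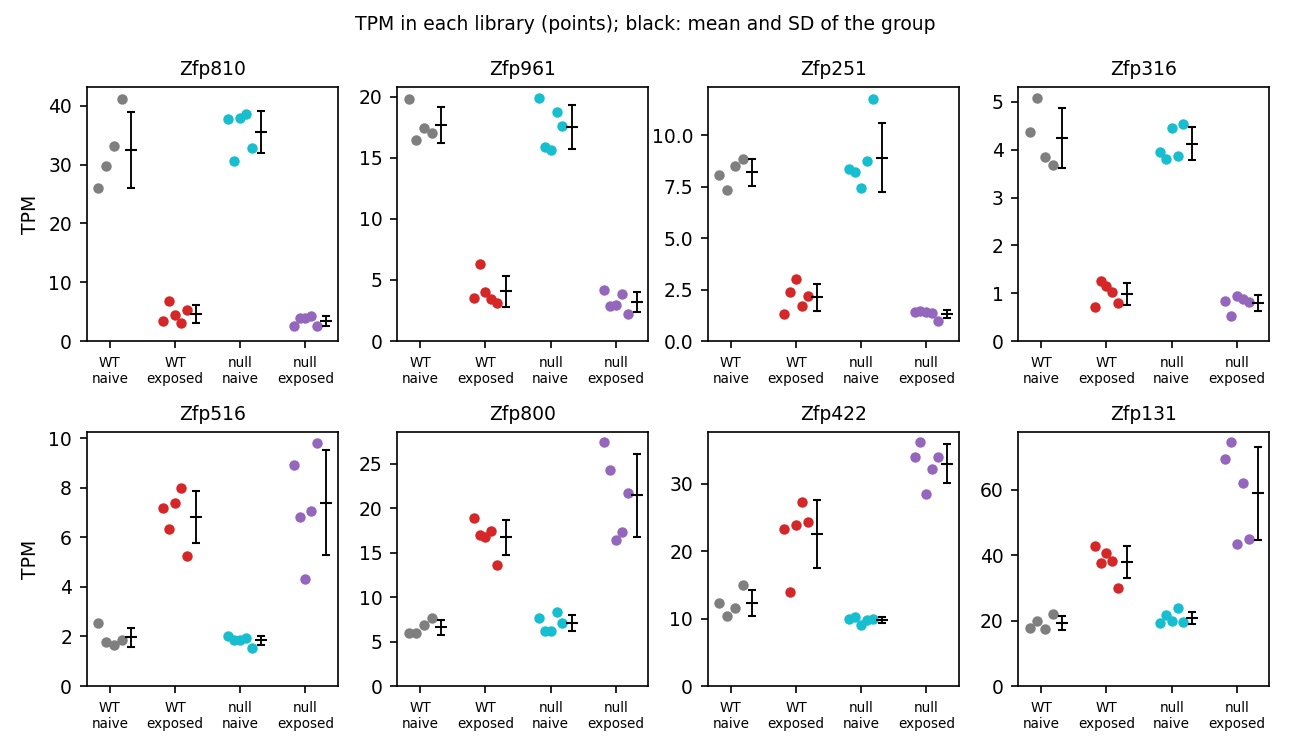
TPM (vertical) in each library for 4 zinc finger genes that fell (top row) and 4 that rose (bottom row), by group, with the mean and SD in black. Exposed libraries lie below all naive ones for Zfp810, Zfp961, Zfp251 and Zfp316 in both genotypes, and for Zfp422 exposed wild type library 2 (14.0 TPM) falls within the naive wild type range.

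The other genes named for the largest falls were Zfp760, Zfp707, Zfp273, Zfp677, Zfp808, Zfp579 and Zfp61 in wild type mice, with changes from -2.01 (Zfp760) to -1.76 (Zfp61). In null mice they were Zfp760, Zfp273, Zfp61, Zkscan7, Zfp677, Zfp141 and Zfp60, with changes from -2.73 (Zfp760) to -2.09 (Zfp60). These genes were named from among called genes whose groups did not overlap in TPM. Zkscan7 (chr9:122714750-122727683) was at 6.34, 4.74, 6.12, 5.395 and 5.39 TPM in naive and 0.877, 0.576, 1.12, 1.04 and 0.745 TPM in exposed null libraries. In wild type its lowest naive library (1.61 TPM) lay within the exposed range of 0.796 to 2.51 TPM, with a called change of -1.36 (SE 0.34). Of the 14 genes named for their falls, 12 were highest in exposed wild type library 2 within its group. Without that library 141 members fell and 21 rose in wild type mice, and the median change was −0.64.

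The genes that rose were few, and the largest rises, of 2.17 in wild type and 2.33 in null mice, were smaller than the largest falls of −2.38 and −2.95. Zfp516, which binds the Ucp1 promoter in brown fat, was at 2.53, 1.79, 1.65 and 1.87 TPM in naive and 7.19, 6.32, 7.36, 7.97 and 5.23 TPM in exposed wild type libraries. It was at 2.03, 1.85, 1.84, 1.95 and 1.52 TPM in naive and 8.93, 6.81, 4.33, 7.07 and 9.81 TPM in exposed null libraries. Every exposed library lay above every naive one, and the changes of 2.17 (SE 0.19) and 2.33 (SE 0.17) were the largest rises among the members. Zfp800 (chr6:28239926-28398004) rose from 5.98, 5.92, 6.83 and 7.69 TPM to 18.9, 17.02, 16.8, 17.4 and 13.6 TPM in wild type libraries. In null libraries it rose from 7.71, 6.17, 6.24, 8.33 and 7.09 TPM to 27.5, 24.3, 16.5, 17.3 and 21.8 TPM. Its changes were 1.76 (SE 0.15) and 2.01 (SE 0.14), and its groups did not overlap.

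Zfp131, a BTB domain protein, and Zfp422 also rose in both genotypes. Zfp131 (chr13:120226723-120252425) was at 17.7, 19.8, 17.4 and 22.2 TPM in naive and 42.9, 37.7, 40.8, 38.2 and 30.04 TPM in exposed wild type libraries. In null libraries it was at 19.4, 21.8, 19.99, 23.8 and 19.5 TPM before and 69.5, 74.7, 43.5, 61.99 and 45.1 TPM after exposure, so that its highest values were in exposed null mice. Its changes were 1.39 (SE 0.14) and 1.84 (SE 0.13). Zfp422 (chr6:116600977-116605960) was at 12.3, 10.4, 11.5 and 14.99 TPM in naive and 23.3, 13.96, 23.9, 27.3 and 24.3 TPM in exposed wild type libraries, with library 2 the low value. In null libraries it went from 10.001, 10.3, 9.05, 9.86 and 9.92 TPM to 33.96, 36.2, 28.4, 32.2 and 33.96 TPM. All exposed null libraries lay above all exposed wild type ones, and the changes were 1.32 (SE 0.14) and 2.09 (SE 0.13). Zfp655, which binds the signalling protein Vav, rose from 20.4, 20.6, 18.3 and 23.04 TPM to 34.4, 33.9, 35.4, 36.1 and 33.4 TPM in wild type and from 22.1, 26.7, 23.3, 21.2 and 25.4 TPM to 43.1, 38.7, 35.2, 31.4 and 42.01 TPM in null libraries. Its changes were 1.09 (SE 0.10) and 1.01 (SE 0.09). Under library totals and log2(TPM + 1) alike, Zfp131, Zfp263, Zfp281, Zfp422, Zfp516, Zfp655 and Zfp800 were called higher in both genotypes.

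Zfp568, which silences a placental promoter of Igf2 in the embryo, rose in wild type mice alone by its calls. It was at 3.58, 6.49, 2.097 and 4.11 TPM in naive and 10.4, 11.8, 12.1, 7.15 and 9.64 TPM in exposed wild type libraries, a change of 2.02 (SE 0.55) with an edgeR adjusted p of 0.00531. In null mice the naive libraries held 10.4, 9.36, 8.47, 9.08 and 9.16 TPM and the exposed ones 17.2, 15.4, 4.302, 5.08 and 6.41 TPM, so the exposed group split around the naive range, and the change was 0.23 (SE 0.48) with an edgeR adjusted p of 0.732. The difference between the genotypes was -1.79 (SE 0.72) with an edgeR adjusted p of 0.388. Without wild type naive libraries 1, 2 and 3, which left library 4 alone in that group, the wild type change was 2.38.

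Among the most abundant members the direction depended more on the scale. Zfp703, a transcriptional co-repressor and the most abundant at a mean of 108 TPM, was at 131, 145, 133 and 131 TPM in naive and 72.7, 91.3, 115, 83.1 and 81.6 TPM in exposed wild type libraries. Its edgeR change was -0.23 (SE 0.08) in wild type, a call lost without any 1 of exposed libraries 1, 2 and 4 or naive libraries 2 and 3. It was 0.03 (SE 0.08), without a call, in null mice, where library totals and both TPM fits gave called changes of −0.31 to −0.30. Zfp207, which binds Bub3 and spindle microtubules, fell from 110.4, 122, 114 and 115 TPM to 65.2, 87.1, 69.5, 57.8 and 49.8 TPM in wild type libraries, with changes of -0.49 (SE 0.10) and -0.46 (SE 0.09). Zfp219 fell in both genotypes (-0.69 (SE 0.09) and -0.62 (SE 0.08)). Zfp384, a nuclear matrix protein, was called higher (0.26 (SE 0.06) and 0.32 (SE 0.06)), yet had values of −0.11 and −0.01 on log2(TPM + 1), and its TPM ranges of 61.3 to 67.3 and 54.9 to 65.8 in naive and exposed wild type libraries overlapped. Zfp91, a ubiquitin ligase, was at -0.04 without a call in wild type and fell in null mice (-0.28 (SE 0.08)).

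By role, 5 of 6 listed genes for imprint and retroelement silencing were tested. In wild type 3 fell and 2 rose and in null mice 3 fell and none rose. Beside this, 60.4% and 68.5% of all members fell, and 30.5% and 35% of the protein-coding genes at the members' level. Zfp809, which targets retroviral sequence, went from 34.4 ± 4.699 to 14.1 ± 3.15 TPM (SD, n = 4 and 5) in wild type and from 36.7 ± 3.52 to 11.4 ± 2.098 TPM (SD, n = 5 each) in null mice, with changes of -0.90 (SE 0.15) and -1.31 (SE 0.15). Zfp445, which protects imprints, changed by -0.37 and -0.42, and Zfp932 by -0.77 and -1.10. The rises in wild type were those of Zfp568 and of Zfp57, the other imprint protector, which lies under the level at 0.548 TPM and changed by 2.95 (SE 0.67). The member calls in this list held in direction with library totals and TPM.

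Of the 9 members that bind RNA or act in translation, 4 were called higher and 2 lower in both genotypes on the TMM scale, with medians of 0.05 and 0.03, where 26.7% and 26.8% of the protein-coding genes at this level rose and 30.5% and 35% fell. The counts turned with the scale. Zfp598, a ligase that senses collided ribosomes, was at 39.2 ± 2.001 TPM in naive and 42.9 ± 7.87 TPM in exposed wild type mice (SD, n = 4 and 5), with changes of 0.50 (SE 0.11) and 0.54 (SE 0.10). Zfp593, Zfp830 and Zfp326 had changes of 0.45, 0.41 and 0.29 in wild type and 0.41, 0.26 and 0.27 in null mice. None of these 4 was called higher with library totals or on log2(TPM + 1), and Zfp326 in both genotypes and Zfp830 in null mice turned negative there. Zfp706 (-0.37 and -0.30) and Zfp346 (-0.46 and -0.35), a double-stranded RNA binder, fell on all these scales. Zfp106, Zfp622 and Zfp638 were not called on the TMM scale, with edgeR changes between −0.07 and 0.05. On log2(TPM + 1) Zfp106 (−0.35 and −0.37) and Zfp622 (−0.43 and −0.33) were called lower in both genotypes and Zfp638 (−0.23 and −0.37) in null mice.

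Among the 14 genes of chromatin complexes and promoter binding, 4 rose and 6 fell in wild type and 3 rose and 6 fell in null mice. Of the protein-coding genes at the members' level, 26.7% and 26.8% rose and 30.5% and 35% fell. Zfp263 went from 29.7 ± 5.71 to 41.7 ± 6.03 TPM (SD, n = 4 and 5) in wild type, with changes of 0.89 (SE 0.12) and 0.89 (SE 0.11). Zfp281, a regulator of pluripotency genes, changed by 0.82 and 0.89, and its naive wild type library 4 (13.1 TPM) lay within the exposed range of 11.1 to 15.04 TPM. Zfp827, under the level at 0.317 TPM, was called higher in wild type and not in null mice, and Zfp384 was the other rise. The falls in wild type were those of Zfp219, Zfp687 (-0.70 and -0.76, a partner of Zmynd8), Zfp217 (-0.52 and -0.18, the latter not called), Zfp148 (-0.36 and -0.61), Zfp644 (-0.34 and -0.72) and Zfp410 (-0.32 and -0.48), the activator of Chd4. Zfp592, another Zmynd8 partner, was at -0.09 without a call in wild type and fell by 0.28 on the log2 scale in null mice. Zfp143, Zfp609 and Zfp462, which is barely present at 0.0336 TPM, were not called.

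Of the 3 ubiquitin and SUMO ligases, Zfp598 and Zfp451 were called higher in both genotypes (Zfp451 0.34 and 0.41), and on log2(TPM + 1) Zfp451 was at −0.16 and −0.14 without a call. Of the 7 Zkscan genes, which pair a KRAB with a SCAN domain, 4 fell and 1 was called higher in each genotype. Beside both lists, 26.7% and 26.8% of the protein-coding genes at this level rose and 30.5% and 35% fell. Of all members, 9.36% and 10.2% rose and 60.4% and 68.5% fell. Zkscan14 changed by -1.15 (SE 0.17) and -1.90 (SE 0.16), Zkscan5 by -1.36 (SE 0.20) and -1.32 (SE 0.19), and Zkscan3, a repressor of autophagy genes and the most abundant of them at 41.02 TPM, by -0.71 (SE 0.11) and -0.80 (SE 0.11). Zkscan17 (0.25 and 0.31) had the opposite sign on log2(TPM + 1), and Zkscan1 and Zkscan6 were not called.

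The proteins through which KRAB zinc fingers silence DNA did not move as 1 group. Of 38 listed partners, 12 were called higher and 10 lower in wild type, and 13 higher and 15 lower in null mice, with medians of −0.10 and −0.03. Over the protein-coding genes at the members' level, 26.7% were higher and 30.5% lower in wild type, and 26.8% and 35% in null mice. A split in both directions was thus common among expressed genes. With DESeq2-style size factors 10 and 14 of the falls and all 12 and 13 rises kept their calls. The 10 and 15 falls were called in the same direction with library totals and log2(TPM + 1), scales that lower most genes. There 2 and 4 of the rises kept their call with library totals and 3 and 4 on log2(TPM + 1). With library totals 6 of the rises in each genotype had the opposite sign, and on log2(TPM + 1) 7 in wild type and 6 in null mice did, of which Mta2 in wild type (−0.17) and Hdac1 in null mice (−0.19) were called lower. Trim28 itself was at 80.9 ± 4.32 TPM in naive and 54.3 ± 11.3 TPM in exposed wild type mice (SD, n = 4 and 5), with changes of -0.18 (SE 0.09) and -0.06 (SE 0.09), neither called on the TMM scale and both called lower on log2(TPM + 1) (−0.59 and −0.48). Setdb1 fell from 24.1 ± 2.52 to 11.4 ± 2.403 TPM (SD, n = 4 and 5) in wild type and from 26.2 ± 3.44 to 11.6 ± 1.14 TPM (SD, n = 5 each) in null mice (-0.75 and -0.91). Its cofactor Atf7ip fell as well (-0.81 and -1.11), as did Morc3 (-0.57 and -0.85) and the methyltransferase Ehmt1 (-0.74 and -0.92). Chd4, the remodeller of the NuRD complex, rose from 108 ± 6.705 to 214 ± 34.5 TPM (SD, n = 4 and 5) in wild type and from 98.7 ± 4.88 to 245 ± 42.3 TPM (SD, n = 5 each) in null mice (1.37 and 1.65). Resf1, a Setdb1 partner at retroelements, rose by 1.44 and 1.23. These 2 rises were called under every scaling.

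The fall was found at each level of expression. Members were split in order of mean TPM. Of the 79 lowest (2.01 to 4.64 TPM) 67.1% fell in wild type and 75.9% in null mice, against 32.04% and 39.4% of other protein-coding genes in that range. Of the 78 in the middle (4.68 to 9.85 TPM) 69.2% and 73.1% fell, against 39.0% and 46.9%. Of the 78 highest (10.1 to 108 TPM) 44.9% and 56.4% fell, against 30.9% and 34.7%. Ordered by the length of the gene's span, 51 of the 79 shortest, 50 of the next 78 and 41 of the 78 longest fell in wild type. In null mice 53, 55 and 53 fell, and other genes were not ordered by span. Just under the level lay Zfp85 (mean 1.91 TPM, changes −1.60 and −2.27), Zfp128 (1.93 TPM, −2.09 and −3.52) and Zkscan8 (1.96 TPM, −1.55 and −2.22). Just above it lay Zfp81 (2.01 TPM, −1.14 and −1.09), Zfp69 (2.02 TPM, −0.74 and −0.74) and Zfp235 (2.03 TPM, −1.17 and −1.26).

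The genes lay on 20 chromosomes, with 52 on chromosome 7, 30 on chromosome 17, 20 on chromosome 13 and 18 on chromosome 2. Grouping members with gaps of at most 500 kb gave 17 clusters of at least 4 members, which held 107 genes. In clusters 70 fell and 5 rose in wild type (median −0.73) and 79 fell and 5 rose in null mice (median −1.04). Outside clusters, 72 of 128 fell and 17 rose in wild type (median −0.47), and 82 fell and 19 rose in null mice (median −0.51). The largest cluster, 17 genes at chr17:21229165-23086108, had 13 falls in wild type and 15 in null mice, and all 4 genes at chr7:12212220-12719641 (Zfp606, Zfp329, Zfp110 and Zfp446) fell in both. The 6 genes at chr4:146533480-147932823 had 2 falls in each genotype, with medians of 0.09 and −0.13. Neighbours in 1 cluster can share sequence, so they are not independent counts, and no test was made between clusters.

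**Figure D3:**
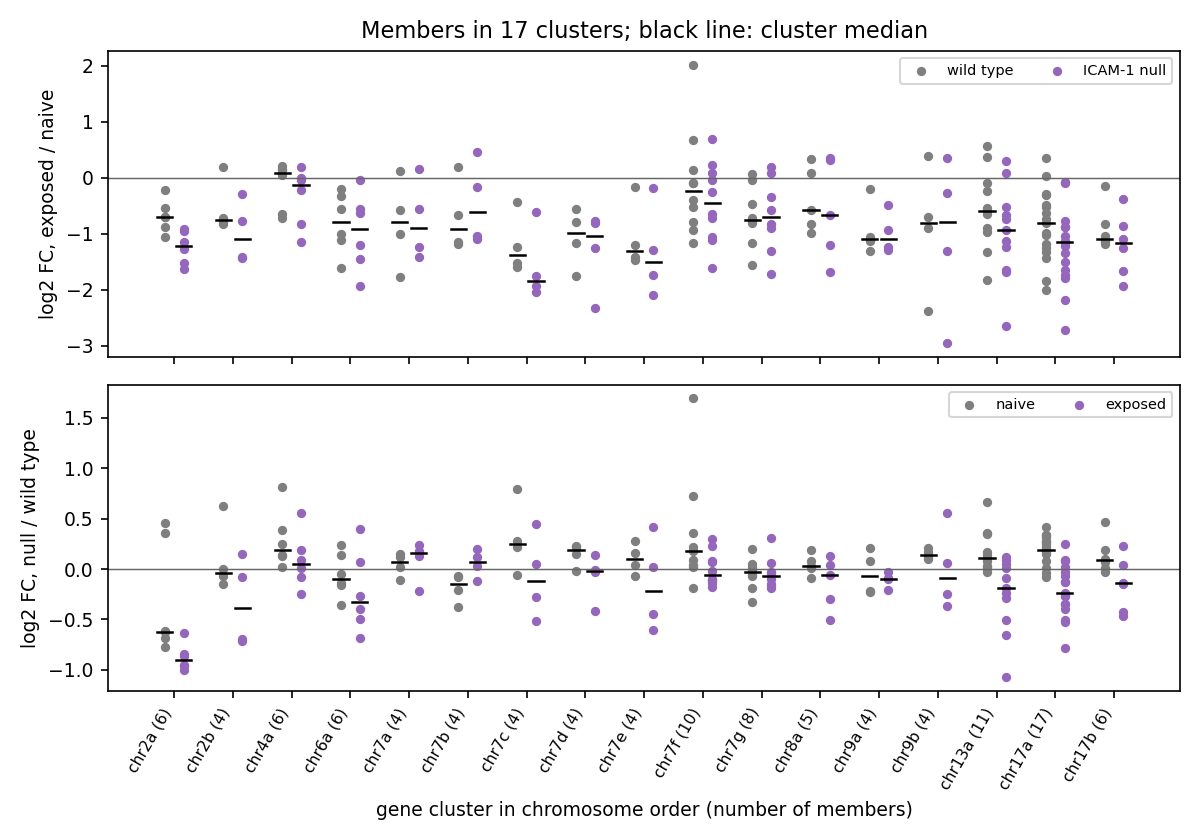
Log2 fold change of each gene (vertical) in the 17 clusters, labelled by chromosome and a letter with the number of genes (horizontal), for exposure in each genotype (top) and for null over wild type in naive and exposed mice (bottom), with black lines at cluster medians. All cluster medians but that of the chromosome 4 cluster in wild type (0.09) lie below 0 on exposure, and the first chromosome 2 cluster lies lowest between genotypes (−0.62 and −0.91).

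The genes called in wild type and in null mice were largely the same, from comparisons that share no library. Of the falls, 136 were called in both, which is 95.8% of those in wild type and 84.5% of those in null mice. Of the rises 19 were shared (86.4% and 79.2%), no gene was called in opposite directions, and 41 were called in neither. Across the 235 genes the 2 changes had a Pearson r of 0.93, a description over genes that are not independent. Neither the overlap nor the correlation was computed for other genes, so whether this agreement is particular to the members is not known. In either direction, 40.2% of all genes in wild type and 44.8% in null mice were called. Of the protein-coding genes at this level, 57.3% and 61.8% were. The fitted change was lower in null than in wild type mice for 164 of 235 members (69.8%), whether they rose or fell, against 54.3% of all genes and 57.4% of the protein-coding genes, and the median difference was −0.16 against −0.03 and −0.04. Without wild type naive libraries 1, 2 and 3, which left library 4 alone in that group, the members' median difference was −0.02. Library 4 had the highest member sum of its group, 3732 TPM against 3264 to 3324 TPM in the others. With only library 4 left out, the median difference was −0.21. In that fit 54 members had an unadjusted edgeR p under 0.05, 50 of them lower in null. The size of the median difference thus varied with the naive wild type libraries used. No single member passed the interaction test in edgeR (0 of 235, against 0.332% of all genes and 0.475% of the protein-coding genes), with 34 at an unadjusted p under 0.05 (14.5%, against 9.85% and 11.7%), 28 of them lower in null, and 3 called by DESeq2. Zfp422 had the smallest adjusted p (difference 0.76 (SE 0.19), edgeR adjusted p 0.102). Without exposed wild type library 2 the median difference was −0.10 and Zfp422 was called (0.63, SE 0.12, edgeR adjusted p 0.0307). The genes DESeq2 called were Zfp422 (0.77), Zfp825 (−0.90) and Zfp597 (−0.55), with adjusted p of 0.0164, 0.0262 and 0.0445.

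**Figure D4:**
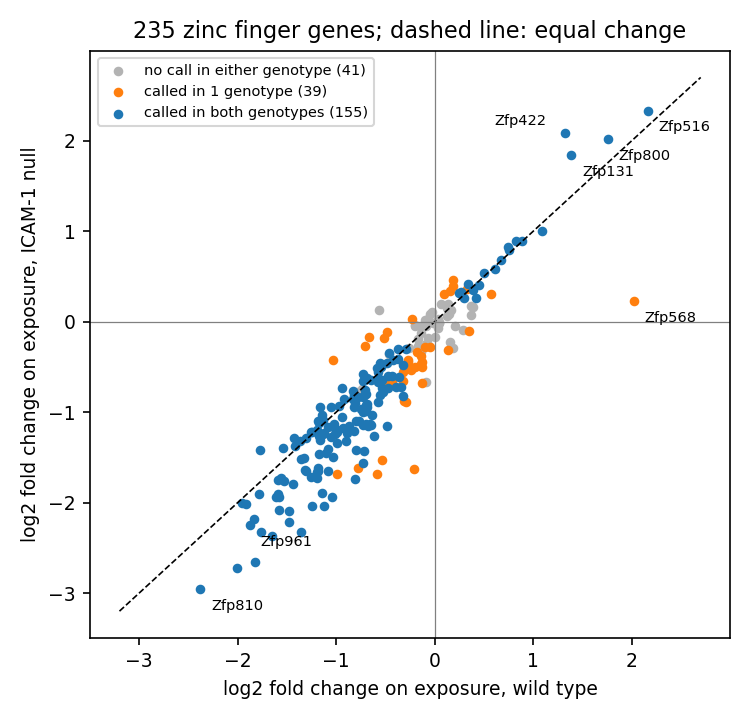
Log2 fold change on exposure of each zinc finger gene in wild type (horizontal) and ICAM-1 null mice (vertical), coloured by whether it was called in both genotypes (155), in 1 (39) or in neither (41). Most points lie in the lower left and below the dashed line of equal change, and Zfp568 lies apart with 2.02 in wild type and 0.23 in null mice.

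Between genotypes few of these genes differed. In naive mice 8 of the 235 members were called (3.4%, against 6.86% of all genes and 10.5% of the protein-coding genes), 4 higher and 4 lower in null. Over all genes 4.31% were higher and 2.55% lower, and over the protein-coding genes 6.71% and 3.83%. In exposed mice 28 were called (11.9%, against 8.48% and 12.8%), 4 higher and 24 lower in null. Higher calls were 4.43% of all genes and 6.53% of the protein-coding genes. The lower calls were 10.2% of members, against 4.04% of all genes and 6.3% of the protein-coding genes. That count turned on 1 library: without exposed wild type library 2 there were 17, with 4 higher and 13 lower, all of them among the 28. In naive mice the count was 4 without wild type naive library 1 or null naive library 2, and 5 without wild type naive library 2 or null naive library 1. Fitting the groups compared alone gave 14 in naive and 14 in exposed mice. Whether a difference comes from the loss of ICAM-1 or from other differences between the lines cannot be told apart.

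Zfp605, Zfp932, Zfp967, Zfp968 and Zfp969 differed in naive and in exposed mice, in the same direction and from separate libraries, and all 5 were kept without library 2. Zfp605 (chr5:110257958-110277660) was at 2.39, 2.93, 2.34 and 2.797 TPM in naive wild type and 6.45, 4.55, 6.405, 6.98 and 5.995 TPM in naive null libraries. After exposure it was at 0.786, 1.89, 0.977, 0.794 and 0.673 TPM in wild type and 4.17, 3.96, 3.17, 3.33 and 3.59 TPM in null libraries. The null libraries lay above all wild type ones in both states, with differences of 1.27 (SE 0.20) and 1.88 (SE 0.19) (edgeR adjusted p 1.65e-04 and 5.75e-07). Its neighbour Zfp932 (chr5:110144387-110158277), 99.7 kb away, differed the other way. It was at 13.9, 10.3, 13.5 and 19.5 TPM in naive wild type and 10.9, 6.48, 6.49, 6.82 and 6.89 TPM in naive null libraries, where library 1 overlapped the wild type range. After exposure it was at 6.72, 7.38, 6.33, 5.39 and 6.01 and 1.94, 2.57, 2.14, 4.55 and 2.596 TPM, without overlap, and the differences were -0.93 (SE 0.21) and -1.26 (SE 0.21).

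Zfp967, Zfp968 and Zfp969 belong to the cluster at chr2:175214229-176410878. Zfp968 (chr2:175214229-175230029) was at 7.94, 7.88, 7.64 and 9.31 TPM in naive wild type and 5.44, 4.44, 6.15, 5.06 and 4.69 TPM in naive null libraries. After exposure it was at 3.78, 4.35, 3.38, 4.11 and 3.48 and 2.04, 2.22, 1.77, 2.35 and 1.83 TPM, so that each state separated the genotypes. Its differences were -0.62 (SE 0.10) and -0.86 (SE 0.10). Zfp969 was at 8.32, 8.74, 8.85 and 9.81 against 5.62, 4.69, 5.26, 5.34 and 5.01 TPM in naive libraries and at 4.06, 4.78, 4.16, 4.37 and 3.57 against 2.22, 2.36, 2.25, 2.33 and 2.29 TPM in exposed ones, with differences of -0.62 (SE 0.10) and -0.84 (SE 0.10). Zfp967 had differences of -0.68 (SE 0.19) and -0.96 (SE 0.19). In both chromosome 2 clusters together (10 genes) 3 were lower in naive and 5 in exposed null mice, Zfp966 (-0.9996) and Zfp971 (-0.72) being the added ones. How reads are divided among such similar neighbours is not known here, so the values of single genes in this cluster are uncertain. The 8 genes in both chromosome 9 clusters, on the chromosome of Icam1, had no call between genotypes. Of all 15 members on that chromosome, 0 were called in naive and 1 in exposed mice. Over all genes tested 6.86% and 8.48% were called, so counts this small cannot show a lack of differences there.

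**Figure D5:**
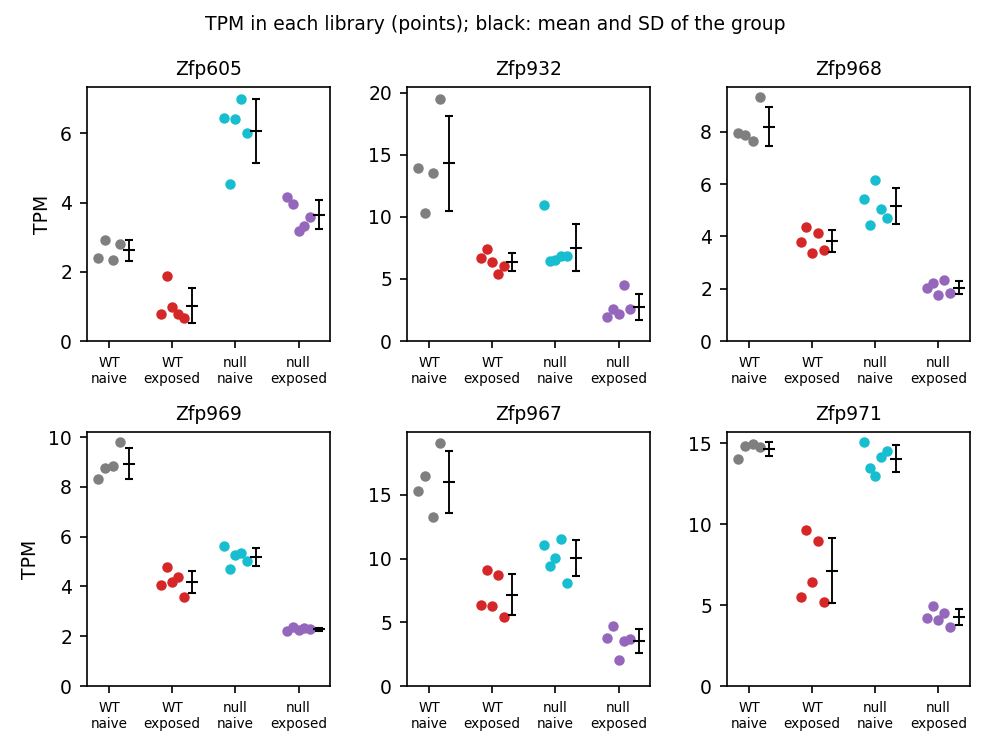
TPM (vertical) in each library by group for 6 zinc finger genes that differed between genotypes, with the mean and SD in black. Zfp605 is higher in null than in wild type libraries in both states, Zfp968 and Zfp969 are lower in both, and Zfp971 overlaps in naive and separates in exposed libraries.

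The other naive differences were Zfp979 (0.81 (SE 0.22)), Zfp948 (0.42 (SE 0.12)) and Zfp146 (0.36 (SE 0.10)), all higher in null mice. In exposed mice Zfp131 (0.64 (SE 0.13)) and Zfp422 (0.56 (SE 0.13)), which rose on exposure in both genotypes, were higher in null, as was Zfp746 (0.40). Zfp976 (-0.99 (SE 0.18)), Zfp626 (-0.61 (SE 0.12)) and Zfp318 (-0.52 (SE 0.11)) were lower in null. Zfp318, known for its part in IgD expression in B cells, was at 4.103, 4.39, 3.96, 3.94 and 3.52 TPM in exposed wild type and 3.43, 2.65, 1.82, 2.74 and 2.99 TPM in exposed null libraries, without overlap. Beside this, B, T and NK cell markers summed to 503 to 593 TPM in those wild type and 302 to 357 TPM in those null libraries, and their part in this difference was not tested.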

How the data were processed

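RNA from lavaged cells of 19 mice was sequenced as poly(A)-selected pairs of 150 bases, per the labels' protocols. GRCm39, STAR and version 2 of StringTie are named in the submitters' processing notes, which state no strand or multimapping setting. The authors deposited estimated counts per gene, as whole numbers with no depth scaling, and TPM, scaled by the authors for gene length and library sum. The counts of all 4 groups were fitted together with edgeR 4.0.16 in R 4.3.3 (TMM scaling, filterByExpr with a minimum count of 10, quasi-likelihood F test, two-sided), with Benjamini-Hochberg adjustment over 20501 genes. Contrasts were exposure within each genotype, genotype within naive and within exposed mice, and the interaction. Genotype contrasts share libraries with the exposure contrasts. DESeq2 1.42.0 and limma 3.58.1, the latter on log2(TPM + 1) and log2(TPM + 0.1), served as alternatives, beside other scalings, no filter, fits on the groups compared, a replicate block and each library left out. Total deposited estimated counts of 32.8 to 80.3 M per library exceed the planned 20 M paired reads, per the labels' protocols. One fragment may thus be worth several counts, so the totals do not give the counting precision and no counting interval is printed.

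The members and all gene lists were chosen with earlier results of these data known, and the fits were tested on simulated data. Genes were named as the 10 largest falls and rises per exposure contrast among called genes without overlap in TPM, up to 10 called genes per genotype contrast, the 5 highest by TPM, members of the role lists and the 3 genes on each side of the level. Promoter windows are RefSeq's on GRCm38.p6, matched by symbol. Features of the proteins were not analysed here.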

Additional observations from a re-analysis of the deposited data

Results flagged for a closer look

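Of 152 groups examined, 4 for each of the 38 genes named in the text for their values, 16 held a library whose TPM stood far from the rest of its group by Dixon's criterion, and chance alone flags about 1 in 20 groups. Exposed wild type library 2 was the high value for Zfp605 (1.89 against 0.673 to 0.977 TPM), Zfp677 (2.32 against 0.771 to 1.16 TPM) and Zfp961 (6.29 against 3.12 to 4.03 TPM). Exposed wild type library 1 was high for Zfp91 (43.2 against 40.0 to 40.7 TPM). Among naive wild type libraries, library 2 was low for Zfp273 (3.03 against 4.52 to 4.66 TPM) and high for Zfp703 (145 against 131 to 133 TPM), library 4 was high for Zfp281 (13.1 against 7.81 to 8.36 TPM), and library 1 was low for Zfp971 (14.0 against 14.8 to 14.9 TPM) and Zfp976 (2.34 against 3.65 to 3.91 TPM).

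In naive null mice library 1 was low for Zfp273 (3.88 against 4.73 to 4.97 TPM) and high for Zfp932 (10.9 against 6.48 to 6.89 TPM). In exposed null mice library 5 was low for Zfp251 (0.987 against 1.37 to 1.45 TPM) and Zfp579 (2.56 against 4.58 to 5.01 TPM), and library 2 was low for Zfp316 (0.521 against 0.822 to 0.932 TPM). Library 4 of that group was high for Zfp760 (2.00 against 0.909 to 1.07 TPM) and Zfp932 (4.55 against 1.94 to 2.60 TPM).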

How the results depend on the processing

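The counts of falls stayed within 1.5 times of 142 and 161 under the alternatives run, and the counts of rises did not. Rises in wild type mice numbered 10 with library totals, 9 on log2(TPM + 0.1) and on log2(TPM + 1), and 6 without wild type naive libraries 1, 2 and 3, against 22. In null mice they numbered 10, 7 and 7 under the same 3 scales, against 24. Naive genotype differences numbered 14 with DESeq2 and 14 on the groups compared alone, against 8. The fit without wild type naive libraries 1, 2 and 3 left library 4 alone in its group. Its count of rises therefore cannot show whether the rises are stable, and its other call counts are not given. Exposed ones numbered 14 on the groups alone and 18 on log2(TPM + 1), against 28, and DESeq2 called 3 interactions against 0. The cause of these shifts was not tested, apart from the smaller number of libraries in some fits.

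With each library left out in turn, rises numbered 19 to 24 and falls 128 to 142 in wild type, and 21 to 24 and 154 to 163 in null mice. Genotype differences numbered 4 to 12 in naive and 17 to 28 in exposed mice, the lowest without exposed wild type library 2, and interactions 0 to 1.

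For the genes named by value, 1591 of 1652 values kept direction and call, 47 lost the call, 3 gained it and 11 changed sign. The sign changes were those of Zfp384 in null (−0.0173, −0.00990 and −0.00972) and wild type mice (−0.0960, −0.108 and −0.107) with library totals, log2(TPM + 0.1) and log2(TPM + 1), of Zfp703 in null mice under the same 3 (−0.307, −0.301 and −0.299) and without null exposed library 5 (−0.000355, with 0.0719 as the highest value with a library left out), and of Zfp91 in wild type mice without naive library 4 (0.0384, with −0.112 as the lowest). With a mean TPM of at least 1 or 5 as the level, 62.7% and 55.1% of genes fell in wild type and 69.2% and 62.6% in null mice.

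Replicate numbers shared across groups did not pair the libraries: in 0 of 18 pairs did the correlation of deviations exceed 0.1 (−0.05 to 0.07), and 5 libraries correlated best with their own number. With the replicate number as a block there were 22 rises and 137 falls in wild type, 24 and 162 in null mice, 8 and 25 genotype differences and 0 interactions. Over the 235 genes the median spread between libraries of a group was 11.5% to 20.6% of the mean, which limits what the 4 or 5 libraries per group can show.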
